A study of Mus musculus with 22 samples.

Results

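Snora73a, the mouse U17 RNA (also called E1), and Snora74a, the mouse U19 RNA, are 2 of the 72 H/ACA small nucleolar RNAs (snoRNAs) counted here with a custom nCounter code set, in which colour-coded probes hybridised to RNA are counted without amplification. Both were found by matching the transcript identifier of each feature, without its version and offset, to the RefSeq gene table of assembly GRCm38.p6, which gave a symbol to 34 of the 72 features. Snora73a lies within the non-coding host gene Snhg3 on mouse chromosome 4 and is 205 bases long in that table, and Snora74a lies within Snhg4 on chromosome 18 and is 198 bases long. Snora73b, another copy of U17 in the same host gene, is not among the 34 named features, and the features without a symbol were not checked for it. Whether the Snora73a probe also captures Snora73b was not tested. The data name no genome build, so coordinates are not given.

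H/ACA snoRNAs form particles with dyskerin, and most of them guide the conversion of a uridine in ribosomal RNA to pseudouridine. U17 is an exception that is known for its part in cutting the ribosomal RNA precursor (pre-rRNA) on the way to small-subunit rRNA, shown by depletion in frog oocytes, and its budding yeast counterpart is needed for growth. The budding yeast counterpart of U19 guides pseudouridylation in large-subunit rRNA. Both are cut from introns of host transcripts, so the level of the snoRNA depends on host transcription, on processing of the intron and on stability of the particle, and a level alone does not report on pre-rRNA processing.

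The 22 mouse samples form 7 groups. Primary spermatogonial stem cells (SSC, n = 4, of which replicates 2 to 4 share a number in their descriptions and may be repeats of 1 source), NIH3T3 cells, an embryonic fibroblast line (n = 3), and RAW264.7 cells, a macrophage line (n = 3), were profiled with no stated treatment. Embryonic stem cells (ESCs) labelled aMHC-puro were profiled at day 0 of differentiation (n = 3), and cardiomyocytes obtained from such cells through embryoid bodies and puromycin selection at day 16 (n = 3). The labels do not spell out the aMHC-puro construct, though aMHC is the usual short form for the cardiac alpha myosin heavy chain gene, and the series' design names the E14Tg2a line for its ESCs. The other 6 samples are ESCs of a retinoic acid experiment in sets of 3 whose labels contradict each other. Set A is titled as retinoic acid treated and described as untreated at time 0, and set B is titled as ESCs and described as retinoic acid at time 6, so they were compared as set B minus set A, and which set was treated is unknown. C2C12 myoblasts, which the design also names, were not analysed here.

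The table holds snoRNAs alone, so no cell type could be checked against its marker genes, and no reference RNA is present against which a shift of all snoRNAs could be read. Values are called normalized counts here and summed to 1045169 to 1668320 in a sample, and within each sample they are whole counts times 1 factor of unstated origin. For 5 features, neither of them Snora73a or Snora74a, the table has no values in SSC, NIH3T3 and RAW264.7 (10 samples), so ESCs and cardiomyocytes lie in a different part of the table than the other cells. In a comparison across these parts, an effect of the part cannot be told apart from one of the cells. In these bulk samples, fewer cells of a type and less RNA per cell cannot be told apart either. Whether replicates came from separate cultures or animals is not stated, so the p-values rest on a spread between samples that may be technical.

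Snora73a was among the strongest signals of the code set in all 22 samples. It had the second highest signal of the 67 features without blanks in most samples, the highest in replicate 1 of the day 0 ESCs, and the 4th highest in all 4 SSC samples. Snora73a and Snora74a together made up between 6.90% and 14.8% of all counts in a sample, with a median of 12.3%. Signals of different probes depend on how well each probe captures its RNA, so ranks and shares describe the assay's signal, and changes between samples are what can be compared.

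Snora73a was low in SSC, intermediate in RAW264.7 and high in the other 5 groups. In SSC it measured 58269.9, 49358, 53296 and 41606 normalized counts in replicates 1 to 4, a mean of 50632 ± 7036 (SD, n = 4). In RAW264.7 the 3 samples gave 75139.9, 94666 and 84892 (84899 ± 9763, SD, n = 3). No SSC sample reached the lowest RAW264.7 sample, and no RAW264.7 sample reached the lowest sample of the other 5 groups. How many other features separate these groups in the same way is not given here.

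The 5 groups with high Snora73a overlapped one another, except that the cardiomyocyte samples all lay above those of set A. NIH3T3 samples measured 131357, 117120.3 and 134060.3 (127512 ± 9101, SD, n = 3). Day 0 ESCs measured 157404, 124611 and 127285 in replicates 1, 2 and 4 (136433 ± 18209.8, SD, n = 3), and replicate 1 was the highest of all 22 samples. Day 16 cardiomyocytes measured 133185, 132112 and 128105 (131134 ± 2678, SD, n = 3), all inside the range of the day 0 samples. Set A measured 123032, 119067 and 125976 in its replicates 1, 3 and 4 (122692 ± 3467, SD, n = 3), and set B measured 110526, 141084 and 139911 (130507 ± 17314, SD, n = 3), the low value being replicate 1. Group means differed by up to 2.69-fold, and differences between groups made up 94.5% of the variance of log2 Snora73a over the 22 samples.

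**Figure D1:**
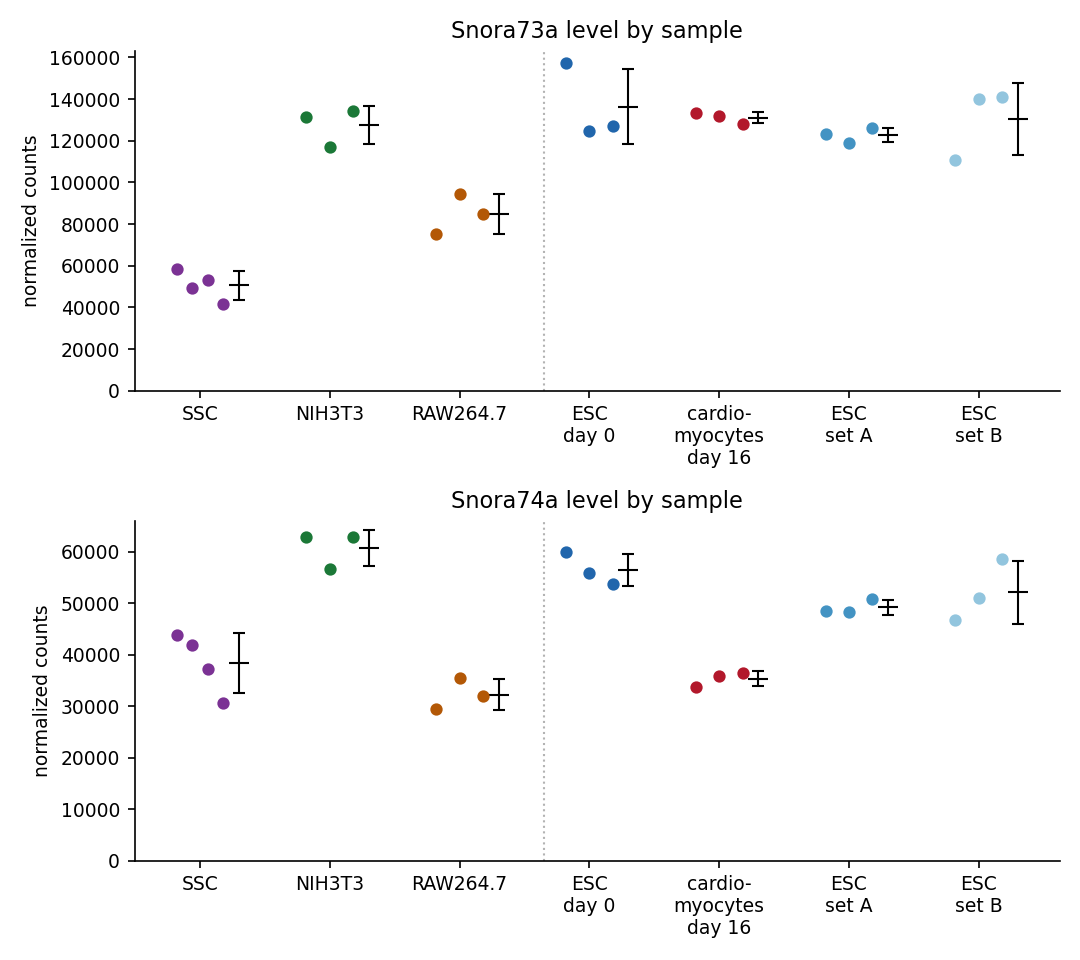
Normalized counts (vertical axes, from 0) of Snora73a (upper panel) and Snora74a (lower panel) for each sample of the 7 groups, with the group mean and SD as a bar beside the points and a dotted line between the parts of the table. Snora73a is low in SSC and RAW264.7, and Snora74a is low in SSC, RAW264.7 and the day 16 cardiomyocytes.

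Snora74a split the groups differently, with cardiomyocytes on the low side. The low groups were RAW264.7, with 29382, 35438 and 31911 normalized counts (32244 ± 3042, SD, n = 3), day 16 cardiomyocytes, with 33689, 35788 and 36438 (35305 ± 1436, SD, n = 3), and SSC, with 43776, 41879.8, 37229.9 and 30549 (38359 ± 5888, SD, n = 4). All 10 of these samples lay below the 12 samples of the other groups. How many other features split the samples in this way was not counted.

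Among the high groups, NIH3T3 had the highest mean of Snora74a, with samples at 62744, 56550.0 and 62735 (60676 ± 3573, SD, n = 3). Day 0 ESCs gave 59897, 55741 and 53747 in replicates 1, 2 and 4 (56461 ± 3138, SD, n = 3). Set A gave 48422, 48317 and 50855 (49198 ± 1436, SD, n = 3), and set B gave 46618, 58633 and 50906 in replicates 1, 3 and 4 (52052 ± 6089, SD, n = 3). The high groups overlapped in part, and group means differed by up to 1.88-fold, less than for Snora73a.

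As a share of all counts in a sample, Snora73a was 4.18% ± 0.213 in SSC (SD, n = 4) and 5.82% ± 0.503 in RAW264.7 (SD, n = 3). The highest mean share of Snora73a, 10.9% ± 0.757 (SD, n = 3), was in day 16 cardiomyocytes, whose normalized counts were level with those of the ESCs. NIH3T3, day 0 ESCs, set A and set B had mean shares of 9.28% ± 0.563, 8.70% ± 0.927, 8.77% ± 0.571 and 9.02% ± 2.10 (SD, n = 3 each). In set B, replicate 1 had 6.62% and the other samples 9.87% and 10.6%, so the SD of set B was the widest of the 7 groups.

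Snora74a took 4.42% ± 0.272 of the counts in NIH3T3 (SD, n = 3), the highest mean share, and 2.21% ± 0.140 in RAW264.7 (SD, n = 3), the lowest. On this scale SSC, at 3.17% ± 0.247 (SD, n = 4), and day 16 cardiomyocytes, at 2.94% ± 0.329 (SD, n = 3), were closer to day 0 ESCs at 3.60% ± 0.0842, set A at 3.52% ± 0.208 and set B at 3.58% ± 0.693 (SD, n = 3 each) than in normalized counts. The cardiomyocyte samples, at 2.56%, 3.15% and 3.10%, all lay below the day 0 samples, at 3.69%, 3.53% and 3.59%. On the scale of shares, such gaps were not counted for the other features.

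**Figure D2:**
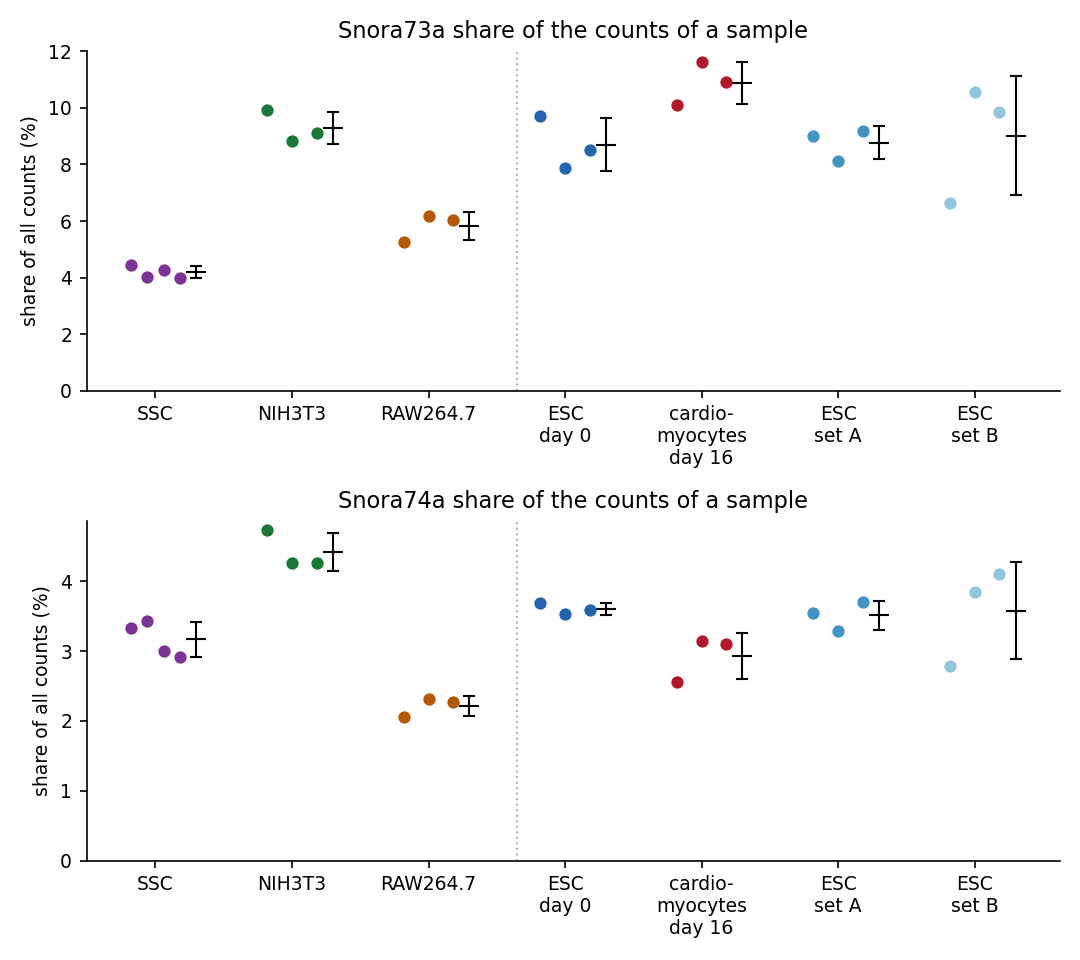
Share of all counts of a sample (%, vertical axes, from 0) taken by Snora73a (upper panel) and Snora74a (lower panel) for each sample, with group mean and SD beside the points and a dotted line between the parts of the table. Cardiomyocytes have the highest mean share of Snora73a, and RAW264.7 has the lowest mean share of Snora74a.

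The first comparison asked whether the snoRNAs differ between the 4 cell types, SSC, NIH3T3, RAW264.7 and day 0 ESCs. Both did in limma's moderated F-test on log2(value + 1), with an adjusted p of 6.21e-07 for Snora73a and 5.63e-05 for Snora74a, where 91.0% of the 67 features tested passed at 0.05. A difference between cell types was thus the rule in this code set. Of the 6 pairs of cell types, Snora73a passed in 5 and Snora74a in 4, beside 58.7% of all pairs and features.

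Snora73a was lower in SSC than in each of the other cell types. It was 2.53-fold lower than in NIH3T3, a log2 difference of -1.34 ± 0.14 (SE, limma adjusted p = 1.37e-06), where 74.6% of the features passed. The difference from day 0 ESCs was -1.43 ± 0.14 (SE, limma adjusted p = 6.68e-07, 68.7% passing), and that from RAW264.7 was -0.75 ± 0.14 (SE, limma adjusted p = 0.000412, 62.7% passing). RAW264.7 was in turn below day 0 ESCs by a log2 difference of -0.68 ± 0.15 (SE, limma adjusted p = 0.00137, 49.3% passing). NIH3T3 was above RAW264.7 by 0.59 ± 0.15 (SE, limma adjusted p = 0.00386, 53.7% passing), which under quantile normalization became 0.22 with a limma adjusted p of 0.133. NIH3T3 and day 0 ESCs were not told apart, with a 95% interval of the log2 difference from -0.42 to 0.24, in a pair in which 43.3% of the features passed.

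Snora74a was highest in NIH3T3 and day 0 ESCs. It was higher in NIH3T3 than in RAW264.7 by 0.91 ± 0.15 on the log2 scale (SE, limma adjusted p = 8.44e-05) and lower in RAW264.7 than in day 0 ESCs, the log2 difference being -0.81 ± 0.15 (SE, limma adjusted p = 0.000246). SSC lay below NIH3T3, at -0.67 ± 0.14 (SE, limma adjusted p = 0.000658), and below day 0 ESCs, at -0.57 ± 0.14 (SE, limma adjusted p = 0.00219). The latter did not pass when each sample was scaled to its total (-0.19, limma adjusted p = 0.0649) or quantile normalized (-0.15, limma adjusted p = 0.0712). SSC and RAW264.7 differed in Snora74a by 0.24 with an interval from -0.05 to 0.53 (limma adjusted p = 0.142), and by 0.37 to 0.53 under the 5 other scalings, all of which passed. NIH3T3 and day 0 ESCs differed by 0.10 as deposited (limma adjusted p = 0.583) and by 0.29 to 0.44 under the same scalings, which also passed. In a limma fit over all 7 groups these calls were fewer. SSC against RAW264.7 passed there under 3 of the 5 scalings, and NIH3T3 against day 0 ESCs under 1.

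Set out over all 7 groups in 1 limma fit, the order had few steps that could be told apart. For Snora73a, 11 of the 21 pairs of groups passed, beside 47.0% of all pairs and features. They were the 6 pairs with SSC and the other 5 pairs with RAW264.7, and none of the 10 pairs among day 0 ESCs, cardiomyocytes, set B, NIH3T3 and set A passed, the smallest limma adjusted p among them being 0.426. Of the 11 pairs, 8 passed under all 5 other scalings. The pairs of RAW264.7 with SSC, day 0 ESCs and set A each failed under 1 of them, median centring. Under that same scaling 2 pairs that had not passed did pass, cardiomyocytes above set A by 0.794 on the log2 scale (limma adjusted p = 0.0278) and above day 0 ESCs (limma adjusted p = 0.0197).

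For Snora74a, 12 of the 21 pairs passed, and these were all 12 pairs between the low groups (RAW264.7, cardiomyocytes and SSC) and the high groups (NIH3T3, day 0 ESCs, set B and set A). Their log2 differences ran from 0.37 to 0.91 in size, and the largest limma adjusted p was 0.0180. This order was less stable: 5 of the 12 pairs passed under all 5 other scalings. The pairs of SSC with day 0 ESCs, set A and set B each passed under 1 of them, and the 3 pairs of cardiomyocytes with ESCs passed under none. Under all 5, Snora74a was instead higher in cardiomyocytes than in RAW264.7, by log2 differences of 0.405 to 0.997 in size.

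The ratio of Snora74a to Snora73a within a sample does not depend on the factor by which the sample was scaled. It was 0.751, 0.848, 0.699 and 0.734 in the 4 SSC samples (0.758 ± 0.0641, SD, n = 4), above every other sample of the series. In cardiomyocytes it was 0.253, 0.271 and 0.284 (0.269 ± 0.0158, SD, n = 3), below every other sample. Between these lay NIH3T3 at 0.478, 0.483 and 0.468 (0.476 ± 0.00755, SD, n = 3), day 0 ESCs at 0.381, 0.447 and 0.422 (0.417 ± 0.0337, SD, n = 3) and RAW264.7 at 0.391, 0.374 and 0.376 (0.380 ± 0.00921, SD, n = 3). Set A gave 0.394, 0.406 and 0.404 (0.401 ± 0.00654, SD, n = 3), and set B gave 0.422, 0.416 and 0.364 in replicates 1, 3 and 4 (0.400 ± 0.0318, SD, n = 3). Differences between groups made up 97.3% of the variance of the log2 ratio. How many other features, as ratios to Snora73a, would set SSC and cardiomyocytes apart in this way was not counted.

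**Figure D3:**
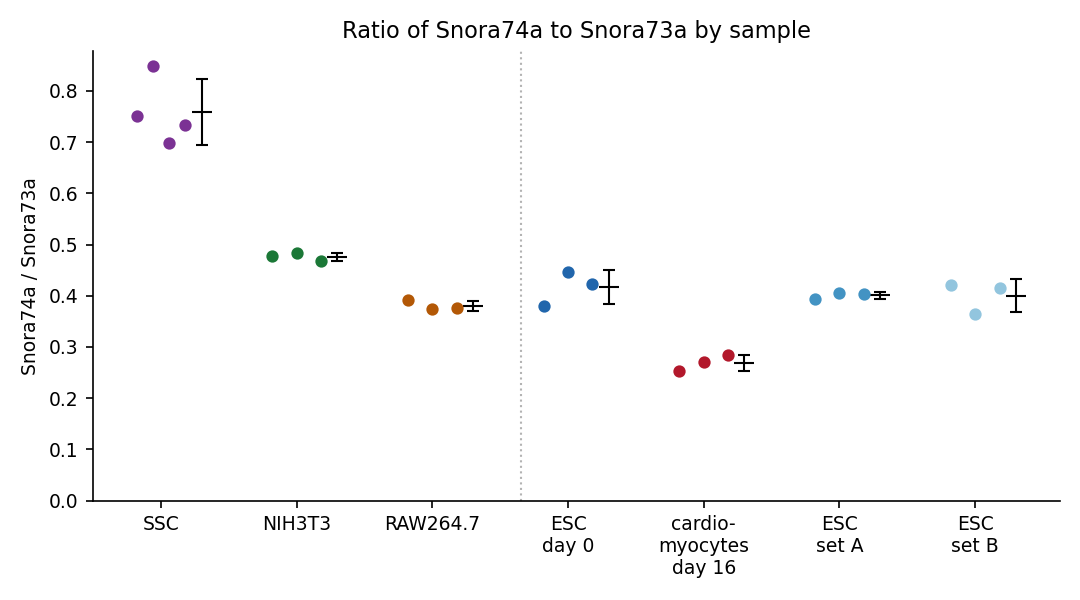
Ratio of the normalized counts of Snora74a to those of Snora73a (vertical axis, from 0) in each of the 22 samples, with group mean and SD beside the points and a dotted line between the parts of the table. The SSC samples lie between 0.699 and 0.848, above all others, and the cardiomyocyte samples between 0.253 and 0.284, below all others.

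Across the 4 cell types the log2 ratio differed in an exact permutation test over all 1201200 assignments of samples to types (p = 9.99e-06). In limma, 65 of the 66 ratios of a feature to Snora73a passed across the 4 cell types. The mean ratio of Snora74a to Snora73a in SSC was 1.59-fold that in NIH3T3, 1.99-fold that in RAW264.7 and 1.82-fold that in day 0 ESCs. Each of these 3 pairs had the smallest p that an exact two-sided permutation test of 4 against 3 samples can give, 0.0286, which is 0.0571 after adjustment over the 6 pairs. With SSC replicates 2 to 4 averaged as 1 sample, the test across the 4 cell types gave an exact permutation p of 0.00013. For the ratios to Snora73a of all other features without blanks, limma gave adjusted p-values of 2.47e-05, 7.94e-07 and 2.65e-06 for these 3 differences of Snora74a. Such differences were common, since 87.9%, 74.2% and 89.4% of the 66 ratios passed in the same pairs. All 66 ratios share Snora73a as denominator, so its low level in SSC raises each of them there. Their median log2 differences were 1.53, 0.69 and 1.39 in these pairs, beside 0.67, 0.99 and 0.86 for Snora74a. The ratio in NIH3T3 was 1.25-fold that in RAW264.7. For this pair the exact two-sided permutation test did not pass, with p = 0.1 and 0.12 after adjustment. The value of 0.1 is the smallest that 3 against 3 samples can give. In limma the adjusted p was 0.00836, with 78.8% of the ratios passing. Of the ratios that passed in this pair, 51 were lower in NIH3T3 and 1 was higher.

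Over the 7 groups, 14 of 21 pairs of the ratio passed in limma, beside 58.1% of all pairs and ratios. SSC was above each of the other 6 groups, cardiomyocytes were below each of the other 6, and NIH3T3 was above RAW264.7, set A and set B. The ratios in day 0 ESCs, set A, set B and RAW264.7 were not told apart from one another.

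The comparison of day 16 cardiomyocytes with day 0 ESCs asked how the snoRNAs change with differentiation. As deposited, Snora73a differed by -0.05 ± 0.18 on the log2 scale (SE, limma adjusted p = 0.834), with an interval from -0.47 to 0.37, and its samples overlapped. Snora74a fell 1.60-fold, a log2 difference of -0.68 ± 0.16 (SE, interval -1.06 to -0.29, limma adjusted p = 0.0316), and its samples did not overlap. Of the 72 features, 30.6% passed in this comparison, 29.2% passed as lower in cardiomyocytes, and 52.8% had samples that did not overlap.

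Most features were lower in cardiomyocytes, and the members' place among them differed. The median log2 difference of the 72 features was -0.51, and 54 of them were below 0. Snora74a, with 43 features above it, was near that median, and Snora73a, with 19 features above it, lay in the upper part of the distribution. The fall of Snora74a depends on the scaling. Scaled to the total, the difference was -0.30 (limma adjusted p = 0.265), and under median centring it was 0.14 (limma adjusted p = 0.849). Snora73a differed by 0.33 when scaled to the total (limma adjusted p = 0.235) and by 0.77 under median centring (limma adjusted p = 0.108). In the fit over all 7 groups, median centring gave a Snora73a difference of 0.845 in size, higher in cardiomyocytes, which passed (limma adjusted p = 0.0197). The call for Snora74a passed without cardiomyocyte replicate 1 (limma adjusted p = 0.0241) and was lost on leaving out any other of the 6 samples, with limma adjusted p-values from 0.0562 to 0.127.

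**Figure D4:**
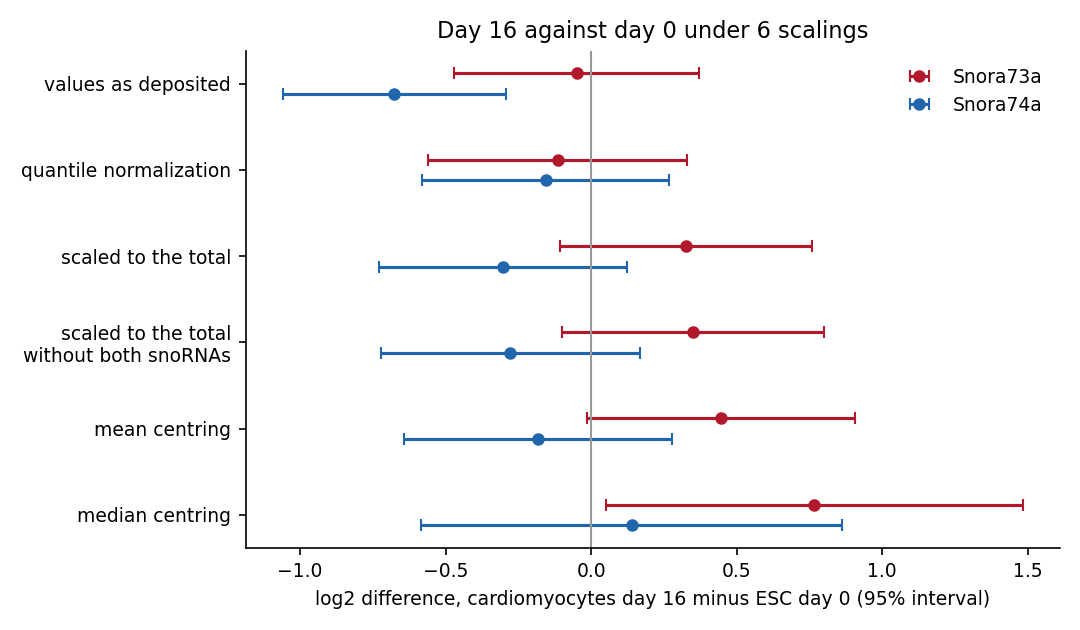
Log2 difference of day 16 cardiomyocytes minus day 0 ESCs (horizontal axis) with its 95% interval for Snora73a and Snora74a, as deposited and under 5 other scalings (rows). Both members move with the scaling, Snora74a from -0.68 as deposited to 0.14 under median centring, at a fixed distance from each other where 1 factor per sample changes, and nearly together under quantile normalization (-0.115 for Snora73a and -0.156 for Snora74a).

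The ratio within a sample is free of the sample's factor, though quantile normalization changes it. The ratio of Snora74a to Snora73a was 1.54-fold higher in day 0 ESCs than in cardiomyocytes, and the 3 samples of each group did not overlap. How many of the other ratios to Snora73a did not overlap in this pair was not counted. The exact two-sided permutation test gave p = 0.1, the smallest value that 3 against 3 samples allow. In limma on the ratios to Snora73a within these 6 samples the difference of -0.63 ± 0.18 (SE) had an adjusted p of 0.0544, with 19.7% of 71 ratios passing. The median log2 difference of the 71 ratios was -0.48, and that of Snora74a to Snora73a is the one tested here. In the fit over all 7 groups, whose spread is estimated from 22 samples, the adjusted p for Snora74a was 2.66e-05, where 53.0% of 66 ratios passed.

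Set B and set A of the retinoic acid experiment were not told apart in either member. The log2 difference of set B minus set A was 0.08 ± 0.13 for Snora73a (SE, interval -0.25 to 0.41, limma adjusted p = 0.663). For Snora74a it was 0.08 ± 0.12 (SE, interval -0.22 to 0.37, limma adjusted p = 0.662). In this comparison 45.8% of the 72 features passed, so the code set as a whole did differ between the sets. The log2 ratio differed by -0.0052 (interval -0.30 to 0.29, exact permutation p = 1), and the intervals leave room for changes of either sign.

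The effects of the differentiation experiments were also compared with each other, by an interaction term in limma over their 12 samples. For Snora74a the day 16 effect minus the set B effect was -0.75 ± 0.17 on the log2 scale (SE, limma adjusted p = 0.0239), where 23.6% of 72 features passed. With the sign of the set effect turned, as the labels do not give its direction, it was -0.60 ± 0.17 (SE, limma adjusted p = 0.0131), where 54.2% passed. For Snora73a the values were -0.13 ± 0.20 (SE, limma adjusted p = 0.614) and 0.03 with the sign turned. None of the 5 other scalings kept either call for Snora74a.

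In the cardiomyocytes Snora73a had the smallest replicate spread of all 67 features, a log2 SD of 0.0296, and Snora74a the next smallest, 0.0593, where the median feature had 0.391. In shares of all counts the same SDs were 0.101 and 0.168, ranks 3 and 15 from the smallest. In SSC the log2 SDs of 0.206 and 0.232 were close to the median feature's 0.207.

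**Figure D5:**
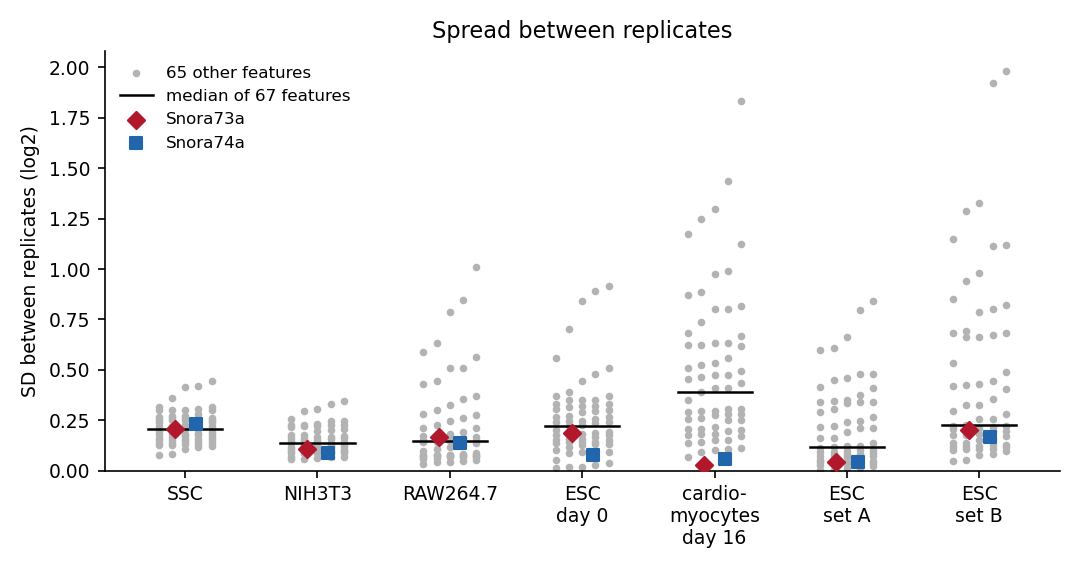
SD between replicates of log2 normalized counts (vertical axis, from 0) in each of the 7 groups, with Snora73a and Snora74a marked among the 67 features without blanks. In cardiomyocytes both members lie at the lower end, at 0.0296 and 0.0593, below a median feature of 0.391.

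Of the named features, those whose log2 levels followed Snora73a most closely over the 22 samples were Snora26 (Pearson r = 0.901), Snora74a (r = 0.579) and Snora43 (r = 0.530). For Snora74a they were Snora26 (r = 0.711), Snora73a (r = 0.579) and Snora16a (r = 0.556). Among all features Snora74a had only rank 7 for Snora73a, behind Snora26 and unnamed features with r from 0.691 to 0.921. For Snora74a, Snora73a had rank 3, behind Snora26 and an unnamed feature (r = 0.66). The samples of a group share a cell type, and all features of a sample share its scaling factor, so these values are descriptions over 7 groups. On the scale of shares, r between Snora73a and Snora74a was 0.449. Their deviations from group means had r = 0.825 in normalized counts.

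Of 3 other H/ACA RNAs listed for pre-rRNA processing or as U17 copies (Snora73b, Snora62 and Snora63), the named features hold Snora62, the E2 RNA, whose depletion in frog oocytes impairs pre-rRNA cleavage. Its levels ran in another order than those of Snora73a and Snora74a, with the highest mean in SSC, 12809 ± 1378 normalized counts (SD, n = 4), and the lowest in cardiomyocytes, 5839 ± 719.6 (SD, n = 3). Snora62 was higher in SSC than in NIH3T3 by 0.85 ± 0.13 on the log2 scale (SE, limma adjusted p = 4.18e-05), a pair in which both Snora73a and Snora74a were lower. For SSC minus RAW264.7, Snora62 differed by 0.14 as deposited, which did not pass (limma adjusted p = 0.351). Under the 5 other scalings Snora62 differed in that pair by 0.275 to 0.419, and all of these passed. From day 0 to day 16 it fell by 0.59 ± 0.18 as deposited (SE, limma adjusted p = 0.0492), close to the median of all features. That call was lost under all 5 other scalings, with differences from -0.22 to 0.22 (limma adjusted p from 0.428 to 0.774), and on leaving out any sample but cardiomyocyte replicate 1 (limma adjusted p from 0.066 to 0.166).

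Both members come from host genes of the Snhg class, mostly non-coding transcripts that carry snoRNAs in their introns, and 6 other named features do too (Snora16a, Snora17, Snora24, Snora43, Snora44 and Snora78, the last of which also lies within the ribosomal protein gene Rps2). Snora17 and Snora43 share the host Snhg7, and Snora16a and Snora44 share Snhg12, so the 6 do not all come from separate hosts. Between SSC and NIH3T3, 4 of these 6 passed as lower in SSC and 0 as higher, beside 32.8% and 41.8% of all features. Their median log2 difference was -0.47, where it was 0.19 over all 67 features. Snora43 (-1.53 ± 0.17, SE, limma adjusted p = 1.58e-06) and Snora24 (-1.50 ± 0.16, SE, limma adjusted p = 1.12e-06) differed about as much as Snora73a, and Snora78 (0.28, limma adjusted p = 0.32) did not pass. Under quantile normalization 2 of the 6 passed as lower. Against RAW264.7, 5 of the 6 passed as lower in SSC and 1 as higher, beside 41.8% and 20.9% of all features, and 2 to 5 passed as lower under the 5 other scalings. Against day 0 ESCs, 5 of the 6 passed as lower in SSC and 0 as higher, beside 35.8% and 32.8% of all features, and 3 to 5 passed as lower under the 5 other scalings, with 1 as higher under both scalings to the total. As deposited, 1 was higher and 1 lower in NIH3T3 than in RAW264.7, where 53.7% of all features passed. NIH3T3 against day 0 ESCs had 1 higher and 2 lower (43.3% passing), and RAW264.7 against day 0 ESCs 0 higher and 1 lower (49.3% passing). In cardiomyocytes against day 0 ESCs, 4 of the 6 passed as lower and 0 as higher, beside 29.2% and 1.39% of the 72 features, with a median of -0.91 beside -0.51 over all of them. Under the 5 other scalings none of the 6 passed in limma, with medians from -0.54 to -0.099, and without single samples between 0 and 5 passed as lower (5 without cardiomyocyte replicate 1, 1 without replicate 2 and 0 without any of the others). In set B against set A, 3 of the 6 passed as lower in set B and 0 as higher, where 45.8% of the 72 features passed. Their median was -0.44, beside 0.16 over all features, while Snora73a and Snora74a both differed by 0.08. Under the 5 other scalings 1 to 3 of the 6 passed as lower in set B.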

How the data were processed

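Per the labels' protocols, Trizol extracts were treated with DNase I and cleaned on columns. The deposited table holds 1 signal value per feature and sample, called normalized counts here; the authors' scaling and background treatment are not stated in the sources at hand. Within every sample 100% of values were whole multiples of 1 step (tolerance 0.02), with steps of 0.900 to 1.22. Totals of whole counts were 932203 to 1547009, so the spread between samples, not counting error, sets the precision, and replicate pairs all differed by more than counting noise.

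Tests used log2(value + 1) in limma 3.58.1 (R 4.3.3; lmFit, eBayes, two-sided, tested on simulated data), with Benjamini-Hochberg adjustment over all features, and over all features and pairs where pairs were compared, at 0.05. The 4 cell types and 7 groups were fitted on the 67 features without blanks, and the differentiation comparisons on 72. Exact permutation tests went through all assignments of samples to groups, with numpy 2.4.6. The limma fit of ratios to Snora73a, the group weights and a replicate block over the 4 cell types were chosen after seeing the data. Alternatives were scaling to the total with and without the members, median and mean centring, quantile normalization, another pseudocount, a filter on low means, group weights, replicate blocks, SSC replicates 2 to 4 averaged as 1 sample, the cell types without day 0 ESCs and leaving out each sample. The members and lists were chosen with earlier results of these data known. Named features were taken by likeness over 22 samples and from the lists.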

Additional observations from a re-analysis of the deposited data

Results flagged for a closer look

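For Snora74a the effect of the day 16 differentiation differed from the effect of set B against set A by -0.75 on the log2 scale in limma's interaction test over 12 samples (adjusted p = 0.0239). With the sign of the set effect turned the difference was -0.60 (limma adjusted p = 0.0131). Both were singled out because a test of the difference itself passed. In cardiomyocytes the 3 Snora74a samples lay below the 3 day 0 samples, while set A and set B overlapped. Both calls were lost under all 5 other scalings and with the replicate block, and the call without the turned sign was lost on leaving out set A replicate 1, set A replicate 3 or day 0 replicate 2 (limma adjusted p from 0.0528 to 0.0805). In SSC, the group large enough for a test of single samples, Dixon's test flagged no sample in the level, share or ratio of either member. It divides the gap between an extreme sample and its neighbour by the range, and the largest value was 0.648, for the ratio. With 4 samples only a very large gap is flagged, so a sample that stands apart could be missed.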

How the results depend on the processing

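The tests of Snora73a, Snora74a and their ratio over the 4 cell types together, which have no direction, passed under all alternatives run. Single pairs did change, as given with them above. The number of pairs of 7 groups that passed for Snora74a was 12 as deposited, 6 under median centring and 11 to 14 without 1 sample. Scaled to the total, to the total without the members, by median centring and by mean centring, the Snora73a difference of cardiomyocytes from day 0 ESCs was 0.33, 0.35, 0.77 and 0.45, its interaction was 0.31, 0.33, 0.54 and 0.46, and its difference of NIH3T3 from day 0 ESCs was 0.10, 0.12, 0.25 and 0.16, opposite in sign to the deposited scale. In the same order, and then under quantile normalization, Snora74a gave -0.30, -0.28, 0.14, -0.18 and -0.16 for cardiomyocytes, -0.31, -0.29, -0.0862, -0.16 and -0.15 for the interaction and -0.29, -0.26, 0.36, -0.21 and -0.20 with the sign turned, none of which passed. Under mean centring, set B minus set A was -0.0189 for Snora73a and -0.0241 for Snora74a, and under quantile normalization the Snora73a interaction with the sign turned was -0.0892. The cause was not tested.

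The number of features that passed between cardiomyocytes and day 0 ESCs was 22 as deposited, 0 under both total scalings (23 at an unadjusted p under 0.05 in limma) and mean centring (22 unadjusted), 6 under median centring, 3 under quantile normalization, 38 with all 7 groups fitted and 8 with the replicate block. For set B against set A it was 33, with 20 under quantile normalization. For the interaction it was 17, with 0 under all 5 other scalings (8 to 15 unadjusted in limma) and 31 with all 7 groups fitted.

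In both differentiation comparisons, 1 of 3 pairs of same-numbered samples deviated together (r above 0.1; 0 of 3 by the titles' numbers), so they were taken to share only a number. Between cell types 0 to 2 of the same-numbered pairs did, out of 2 or 3, with r up to 0.602 (SSC with NIH3T3). Day 0 ESCs had 2 of 2 with NIH3T3 (r of 0.47 and 0.57) and 2 of 2 with RAW264.7 (r of 0.235 and 0.291). A block between cell types moved Snora74a in SSC minus RAW264.7 to 0.35, which passed. With the replicate block the Snora74a differences of -0.68, -0.75 and -0.60 (cardiomyocytes, interaction, sign turned) no longer passed, set B against set A had 14 passing features (15 by the titles' numbers) and the interaction 0 (22 unadjusted in limma).

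Without 1 sample the ranges were -0.11 to 0.0581 (Snora73a) and -0.71 to -0.63 (Snora74a) for cardiomyocytes, 0.0198 to 0.20 and -0.0138 to 0.15 for set B minus set A, -0.25 to -0.0224 and -0.83 to -0.66 for the interaction, -0.0299 to 0.15 and -0.69 to -0.53 with the sign turned, -0.15 to 0.0154 for Snora73a in NIH3T3 minus day 0 ESCs and -0.0443 to 0.0623 for the log2 ratio in set B minus set A. Passing features ranged from 0 to 34, 17 to 36 and 1 to 20 in cardiomyocytes, sets and interaction. The count tests planned on whole counts (edgeR, DESeq2) were not run. The effect of depth and of the number of samples was not tested.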
